A study of Mus musculus with 7 samples.

Results

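The genes of the autophagy machinery were taken from the deposited gene table by their symbols, and all 36 were found among its 54532 genes. They comprise 11 genes of the initiation complexes, 5 of membrane supply, 10 conjugation enzymes, 5 ATG8 proteins, 4 cargo receptors and the transcription factor gene Tfeb. RNA had been sequenced from liver of old C57BL/6 mice in 7 libraries. The 3 MDL-800 libraries came from animals on a standard diet that followed supplementation with MDL-800, and the 4 control libraries from animals on the standard diet alone. The compound activates SIRT6, a nuclear sirtuin that removes acyl groups from histones and other proteins. The labels give neither the sex nor the exact age of the animals, nor whether each library stands for a different animal. Each p-value below therefore speaks only of the scatter among the libraries, which may be partly technical.

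Autophagy encloses cytoplasm in a double membrane, the autophagosome, and delivers it to lysosomes. The ULK kinase complex starts the process, a class III PI3-kinase complex marks the membrane with PI3P, and lipid scaffolds feed the growing membrane. Ubiquitin-like conjugation then attaches ATG8 proteins (the LC3 and GABARAP families) to the membrane, where they hold receptors that carry cargo. In liver, autophagy is known for its activity in fasting, when it supplies amino acids, lipids and sugars. Much of its control lies in phosphorylation, lipidation and protein turnover, which transcript levels do not measure.

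The libraries held 17600066 to 19920469 reads over genes, recovered from the deposited FPKM (fragments scaled to gene length and library depth). The autophagy genes had 88 reads (Atg10) to 10317 reads (Sqstm1) in a library. Control 1 and MDL-800 2 held 2173 and 3514 reads of 4 Y-linked genes, and the other 5 libraries held 0. These are called here the libraries with and without Y-linked reads, and values without the former are given for the subgroup medians and for some of the genes. Each group held both kinds, so each group held RNA of different animals, in a number that is not known. Hepatocyte markers such as Alb and Apoa1 summed to 54819 to 83304 FPKM per library, so the liver label was met. In bulk RNA, fewer cells of a type cannot be told apart from less RNA per cell.

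Promoter sequences are shown for Gabarapl1, the gene with the largest difference among the 36, and for genes with a CACGTG E-box, the class of element bound by TFEB and related factors. The sequences are from RefSeq, build GRCm38.p6, and end before the gene start of the deposited table. They are written 5′ to 3′ on the strand of the gene, with E-boxes in capitals. The core of the lysosomal CLEAR element, TCACGTGA, was found in Atg3 alone among 30 autophagy genes with a promoter in the RefSeq table, against 1.81% of 8287 tested genes. It lay at positions -72 to -65 from the RefSeq start of Atg3, with another E-box at -94 to -89.
Gabarapl1, chr6:129532942-129533159, plus strand: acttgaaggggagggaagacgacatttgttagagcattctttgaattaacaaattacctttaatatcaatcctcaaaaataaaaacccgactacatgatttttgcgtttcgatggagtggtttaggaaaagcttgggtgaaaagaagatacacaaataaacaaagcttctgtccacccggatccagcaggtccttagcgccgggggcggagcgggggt
Atg3, chr16:45158579-45158784, plus strand: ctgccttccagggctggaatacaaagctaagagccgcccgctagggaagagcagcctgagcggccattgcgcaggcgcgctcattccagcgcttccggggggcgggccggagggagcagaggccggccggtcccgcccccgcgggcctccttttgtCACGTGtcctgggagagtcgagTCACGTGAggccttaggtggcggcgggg
Atg5, chr10:44268295-44268338, plus strand: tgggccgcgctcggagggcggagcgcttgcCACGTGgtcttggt
Bnip3, chr7:138909579-138909644, minus strand: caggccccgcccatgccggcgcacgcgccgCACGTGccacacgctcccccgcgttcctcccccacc
The E-box was present in 4 of the 30 genes (Atg3, Atg5, Atg7 and Bnip3), against 10.2% of the tested genes. In Atg7 it lies before a start inside the gene, and its sequence is not shown. Both motifs read the same on either strand, and CACGTG lies inside TCACGTGA. The forkhead motif TGTTTAC, searched on both strands, was found in 0 of the 30 genes and 2.99% of the tested genes. These counts cover the 250 bases before each RefSeq start and describe exact letters in that window only. Variants were not counted. The Gabarapl1 sequence holds ATAAACA, which differs in its first letter from GTAAACA, the forkhead motif read on the other strand.

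All 36 genes exceeded the mean of 1 FPKM required for testing, and their mean levels spanned a 98.5-fold range on the FPKM scale, which is per gene length. Gabarapl1 was the most abundant at a mean of 201.7 FPKM, followed by Sqstm1 at 143.8 and Gabarap at 141.8 FPKM. The library ranges of these 3 genes overlapped (111.3 to 309.4, 110.1 to 175.2 and 111.8 to 156.6 FPKM), so their order was not resolved. Another 7 genes had means of 20 to 100 FPKM, 6 had 10 to 20 FPKM and 20 had less than 10 FPKM. The ATG8 proteins and receptors, many of which are degraded with the cargo, filled the first 8 places by mean level apart from Atg3 and Atg101. The scaffold and kinase subunit genes Rb1cc1, Atg2b and Pik3r4, at 3.01, 2.18 and 2.15 FPKM, and Tfeb, at 2.05 FPKM, were the lowest.

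Between the treated and control livers, limma called none of the autophagy genes (adjusted p of 0.950 to 0.996). Among all 11394 tested genes, 0 passed (0%), and 553 (4.85%) reached an unadjusted p under 0.05, which 3.23% did as higher and 1.62% as lower. Of the 36 genes, 0 reached it. The differences in log2(FPKM + 1), MDL-800 minus control, ran from -0.20 for Atg101 to 0.31 for Bnip3, with Gabarapl1 apart at 0.83. Of the 36 genes, 27 had a difference above 0, against 54.2% of all tested genes, and the median was 0.08 against 0.02. Without control 2 or without MDL-800 2, the count above 0 was 18 of 36 and the median 0.0074 or 0.0019, and without control 1 or MDL-800 1 the median was 0.15. In the 5 libraries without Y-linked reads, 23 genes were above 0 and the median was 0.065. The median standard error was 0.16, and the 95% intervals of the 35 genes other than Gabarapl1 lay between -0.67 and 0.96. The groups did not overlap for 2 genes, Ambra1 and Atg10, both higher in MDL-800, where 4.03% of all tested genes were separated in that direction and 6.45% in either. In the 5 libraries without Y-linked reads, the groups were separated for 7 genes higher in MDL-800 (Pik3c3, Ambra1, Atg4b, Atg7, Atg10, Gabarapl1 and Sqstm1), against 13.2% of tested genes. They were separated for 2 genes lower (Atg101 and Atg4a), against 9.5%. These separations are on the deposited scale. When each library was scaled by its summed reads instead, MDL-800 2 lay below control 2 for Ambra1 and Atg10, so their groups overlapped.

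**Figure D1:**
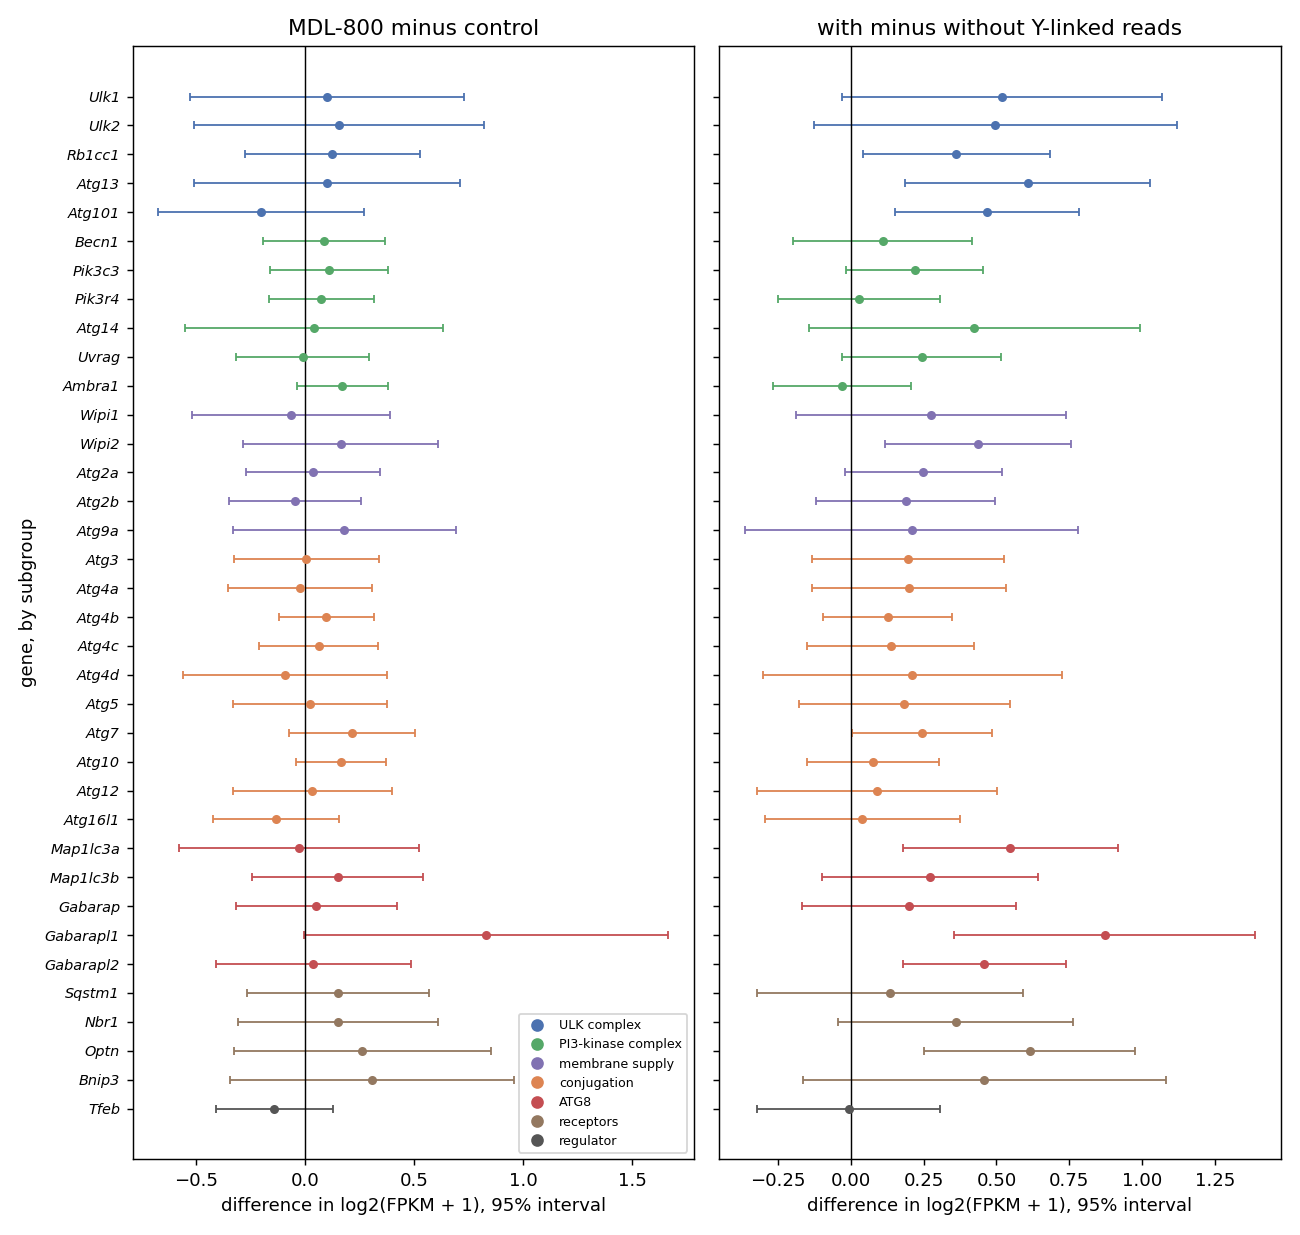
Differences in log2(FPKM + 1) with 95% intervals for the 36 genes, coloured by subgroup. The left panel is MDL-800 minus control, where each interval includes 0. The right panel is the 2 libraries with Y-linked reads minus the 5 without, from a fit that kept treatment as a term. There 34 of 36 points lie above 0 on the deposited scale.

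In the ULK complex, 4 of 5 genes had a difference above 0 (median 0.10). The median was 0.095 in the libraries without Y-linked reads and -0.0015 (without control 2) to 0.22 (without control 1) as libraries were dropped in turn. Atg101, the subunit that stabilises ATG13, had the highest level of the complex. It stood at 44.4, 31.5, 31.2 and 33.5 FPKM in controls 1 to 4 and at 30.7, 37.9 and 23.5 FPKM in MDL-800 1 to 3. MDL-800 3 was the lowest library and control 1 the highest, and the groups overlapped (-0.20 on the log2 scale, standard error 0.20, limma adjusted p = 0.950). The catalytic kinases Ulk1 and Ulk2 differed by 0.10 and 0.16, with standard errors of 0.27 and 0.28. Control 2 held the lowest Ulk1 level, 6.18 FPKM, and control 4 the lowest Ulk2 level, 6.58 FPKM. As a share of the summed Ulk1 and Ulk2 FPKM, Ulk1 made up 39.0% to 60.7% in control and 44.3% to 51.2% in MDL-800 libraries. Rb1cc1, which encodes the scaffold FIP200, and Atg13 differed by 0.13 and 0.10.

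In the PI3-kinase complex, 5 of 6 genes had a difference above 0 (median 0.08, and 0.11 in the libraries without Y-linked reads). Dropping control 2 or MDL-800 3 gave a median of 0.042, and dropping MDL-800 1 gave 0.16. Becn1, which encodes the beclin 1 subunit, was at 6.88, 5.57, 7.20 and 5.71 FPKM in controls 1 to 4 and at 6.08, 7.005 and 7.23 FPKM in MDL-800 1 to 3. Controls 2 and 4 lay below the MDL-800 libraries and controls 1 and 3 within their range (0.09, standard error 0.12, and 0.10 without the libraries with Y-linked reads). Ambra1, a beclin 1 partner that also recruits ubiquitin ligases, was at 4.40, 4.78, 4.88 and 4.07 FPKM in control and at 5.23, 5.16 and 5.26 FPKM in MDL-800. On the deposited scale each MDL-800 library lay above each control library, 5.22 ± 0.0496 FPKM (SD, n = 3) against 4.53 ± 0.372 FPKM (SD, n = 4). The MDL-800 values on that scale were the closest together of any gene here. The difference was 0.17 with a standard error of 0.09 (limma unadjusted p = 0.0937, adjusted p = 0.950). It was 0.17 among the 5 libraries without Y-linked reads as well. With summed reads as the denominator, MDL-800 2 lay below control 2 and apart from MDL-800 1 and 3 (0.20, standard error 0.13). The lipid kinase Pik3c3 and its regulatory subunit Pik3r4 differed by 0.11 and 0.08. Uvrag and Atg14, which define alternative forms of the complex, differed by -0.01 and 0.04, and both lay on either side of 0 as libraries were dropped in turn.

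In membrane supply, 3 of 5 genes had a difference above 0 (median 0.04). The median was 0.0016 in the libraries without Y-linked reads, and dropping control 2, MDL-800 2 or MDL-800 1 gave -0.032, -0.055 and 0.13. Wipi2, a PI3P reader that recruits the conjugation machinery, was at 9.84, 5.63, 7.69 and 6.20 FPKM in controls 1 to 4. It was at 7.48, 9.63 and 7.54 FPKM in MDL-800 1 to 3, within the control range (0.16, standard error 0.19, and 0.19 without the libraries with Y-linked reads). Atg9a, the lipid scramblase of the seed vesicles, differed by 0.18 with a standard error of 0.22. The lipid transfer genes Atg2a and Atg2b differed by 0.04 and -0.05, and Wipi1 by -0.07. Atg9a and Atg2b overlap Ankzf1 and Gskip on the opposite strand, both expressed at similar levels (3.5 and 2.75 FPKM), and the library chemistry does not mark strand.

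Among the conjugation enzymes, 7 of 10 genes had a difference above 0 (median 0.03). The median was -0.024 in the libraries without Y-linked reads, and -0.043 (without MDL-800 2) to 0.10 (without control 3) as libraries were dropped in turn. Atg3, the E2-like enzyme that transfers ATG8 proteins to lipid, had the highest level. It was at 35.96, 29.3, 35.96 and 36.04 FPKM in controls 1 to 4 and at 33.9, 39.8 and 30.04 FPKM in MDL-800 1 to 3. On the deposited scale control 2 stood apart below the other controls, and MDL-800 spread on both sides of them (0.01, standard error 0.14). With summed reads as the denominator, control 2 lay within the range of the other controls. Atg10, the E2-like enzyme that joins ATG12 to ATG5, was at 3.73, 3.5005, 3.62 and 3.63 FPKM in control and at 3.74, 4.46 and 4.38 FPKM in MDL-800. MDL-800 1 and control 1 were nearly equal, and Atg10 rested on 88 to 132 reads per library (0.17, standard error 0.09, limma adjusted p = 0.950). Atg7, the E1-like activating enzyme of both conjugation systems, was at 6.92, 5.82, 5.97 and 5.14 FPKM in control and at 6.24, 7.94 and 7.02 FPKM in MDL-800, an overlap that came from control 1. Its difference of 0.21 was the largest of the subgroup (standard error 0.12, limma unadjusted p = 0.124). Atg5, Atg12 and Atg16l1, whose products form the E3-like complex, differed by 0.02, 0.03 and -0.13.

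The 4 ATG4 proteases, which trim ATG8 proteins before conjugation and release them afterwards, summed to 16.7 to 20.5 FPKM in control and 16.8 to 21.5 FPKM in MDL-800 libraries. Atg4a, Atg4b, Atg4c and Atg4d differed by -0.02, 0.10, 0.06 and -0.09. Each held 16.7% to 32.9% of the summed level in every library, so no single protease dominated. Atg4b and Atg4d overlap Thap4 and Kri1 on the opposite strand.

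Gabarapl1 carried the largest difference of the autophagy genes. It encodes a GABARAP-type ATG8 protein (chromosome 6, 129533160 to 129542346, GRCm38). It stood at 284.9 FPKM in control 1 and at 111.3, 113.0 and 121.8 FPKM in controls 2 to 4. In MDL-800 1 to 3 it stood at 227.8, 309.4 and 243.6 FPKM. Control 1 lay within the MDL-800 range, and the other 3 controls lay together well below it. Group means were 260.3 ± 43.2 FPKM (SD, n = 3) and 157.8 ± 84.9 FPKM (SD, n = 4), a ratio of 1.65. The log2 difference was 0.83 (95% interval from -0.004 to 1.67, limma unadjusted p = 0.0508, adjusted p = 0.950).

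Control 1 and MDL-800 2, the libraries with Y-linked reads, had the 2 highest Gabarapl1 values, 284.9 and 309.4 FPKM. Among the 5 libraries without Y-linked reads, MDL-800 1 and MDL-800 3 averaged 235.7 FPKM and controls 2 to 4 averaged 115.4 ± 5.67 FPKM (SD, n = 3), a ratio of 2.04. The log2 difference there was 1.02 (limma unadjusted p = 6.88e-04, adjusted p = 0.582). In the pair with Y-linked reads, the ratio of MDL-800 2 to control 1 was 1.09, with 1 library per group and no test. With a term for Y-linked reads the difference was 0.76 (limma adjusted p = 0.614), and without control 1 it was 1.16 (adjusted p = 0.249, the lowest of any setting tried). The transcript did not pass in any of these fits.

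The other ATG8 genes had differences of -0.03 to 0.15, and none was tested against Gabarapl1. The median of the 5 ATG8 genes was 0.05, 0.062 in the libraries without Y-linked reads, and -0.031 (without control 2) to 0.18 (without control 1) as libraries were dropped. Gabarap, the gene that gives its subfamily its name, was at 156.6, 111.8, 150.5 and 141.3 FPKM in control and at 134.5, 155.7 and 142.4 FPKM in MDL-800 (0.05, standard error 0.16). Map1lc3a, one of the LC3 genes, was at 41.7, 22.3, 27.6 and 30.2 FPKM in control and at 28.4, 36.1 and 24.0 FPKM in MDL-800 (-0.03, standard error 0.23). For both, the groups overlapped and control 2 was the lowest library.

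Map1lc3b, the LC3 gene whose product is the usual autophagosome marker, was at 17.1, 11.2, 16.2 and 14.6 FPKM in control and at 14.4, 18.5 and 16.3 FPKM in MDL-800 (0.15, standard error 0.17). It overlaps Zcchc14 on the opposite strand, which stood at a mean of 4.73 FPKM. Gabarapl2 was at 24.2, 15.4, 17.9 and 15.2 FPKM in control and at 16.6, 21.7 and 17.2 FPKM in MDL-800 (0.04, standard error 0.19). In both genes the 2 libraries with Y-linked reads were the highest of the 7 on the deposited scale. With summed reads as the denominator this held for Gabarapl2 but not for Map1lc3b.

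Shares within the ATG8 family do not depend on how a library was scaled. Gabarapl1 made up 54.3% of the summed ATG8 FPKM in control 1, 40.9%, 34.8% and 37.7% in controls 2 to 4, and 54.0%, 57.2% and 54.9% in MDL-800 1 to 3. Gabarap made up 29.9% in control 1, 41.1% to 46.3% in the other controls, and 28.8% to 32.1% in MDL-800. The most abundant family member was therefore Gabarapl1 in control 1 and the 3 MDL-800 libraries, and Gabarap in the other 3 controls, although by 41.1% to 40.9% in control 2. Map1lc3a and Gabarapl2 held lower shares in each MDL-800 library than in each control (5.41% to 6.74% against 7.95% to 9.35%, and 3.88% to 4.01% against 4.62% to 5.66%), although their own levels overlapped between groups. A larger Gabarapl1 part lowers the other shares by construction. Control 1 and MDL-800 1 had nearly equal Gabarapl1 shares (54.3% and 54.0%). Their Map1lc3a shares were 7.95% and 6.74%, and their Gabarapl2 shares 4.62% and 3.93%. Of this pair only control 1 held Y-linked reads, so group and Y-linked reads cannot be told apart in it. No test was made on shares.

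**Figure D2:**
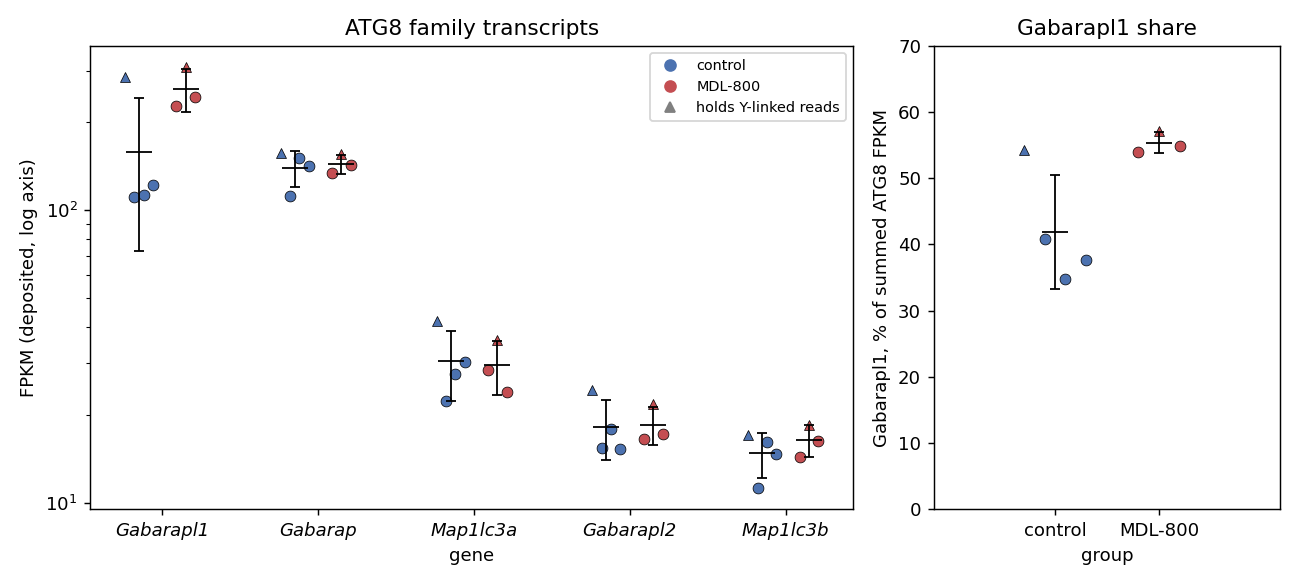
Left, FPKM of the 5 ATG8 genes in each library on a log axis, with group means and SD as bars. Right, Gabarapl1 as a percentage of the summed ATG8 FPKM: controls 2 to 4 lie at 34.8% to 40.9%, while control 1 and the MDL-800 libraries lie at 54.0% to 57.2%. Triangles mark the libraries with Y-linked reads.

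All 4 cargo receptor genes had a difference above 0, with a median of 0.21, and none passed. The median was 0.24 in the libraries without Y-linked reads, and dropping control 2 or MDL-800 2 gave 0.089 and 0.11, while dropping control 1 or MDL-800 1 gave 0.32. Sqstm1, which encodes the ubiquitin-binding receptor p62, was at 166.5, 110.1, 138.0 and 135.6 FPKM in control and at 139.8, 141.1 and 175.2 FPKM in MDL-800. Control 1 lay inside the MDL-800 range and the other controls below it (0.15, standard error 0.18). Among the libraries without Y-linked reads the difference was 0.30, with groups that did not overlap (limma adjusted p = 0.924). Sqstm1 overlaps Mrnip on the opposite strand, at a mean of 3.34 FPKM.

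Bnip3, a mitochondrial outer membrane receptor for mitophagy, was at 80.2, 45.5, 62.0 and 86.2 FPKM in control and at 62.7, 107.9 and 83.0 FPKM in MDL-800. MDL-800 2 was the highest library and control 2 the lowest, and both groups spread widely (0.31, standard error 0.28). Optn, which encodes the receptor optineurin, was at 32.0, 17.9, 16.8 and 23.0 FPKM in control and at 22.4, 33.2 and 24.2 FPKM in MDL-800 (0.26, standard error 0.25). Nbr1, a receptor related to p62, was at 37.9, 23.3, 33.6 and 31.6 FPKM in control and at 29.7, 40.9 and 34.4 FPKM in MDL-800 (0.15, standard error 0.19). Without the libraries with Y-linked reads, Bnip3, Optn and Nbr1 differed by 0.20, 0.28 and 0.13. In Optn and Nbr1 the 2 libraries with Y-linked reads were the highest of the 7 on the deposited scale, as in Gabarapl1. With summed reads as the denominator this held for Optn and Gabarapl1 but not for Nbr1. Sqstm1 held 49.1% to 56.0% of the summed receptor FPKM in control and 43.7% to 55.3% in MDL-800.

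Tfeb, a transcription factor gene that governs lysosomal and autophagy genes, was at 2.16, 2.40, 1.84 and 2.29 FPKM in control and at 2.15, 1.85 and 1.63 FPKM in MDL-800. MDL-800 3 was the lowest library, and controls 2 and 4 were the highest (-0.14, standard error 0.11, limma adjusted p = 0.950). Its level was the lowest of the 36 genes, and its difference was -0.14 without the libraries with Y-linked reads as well.

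**Figure D3:**
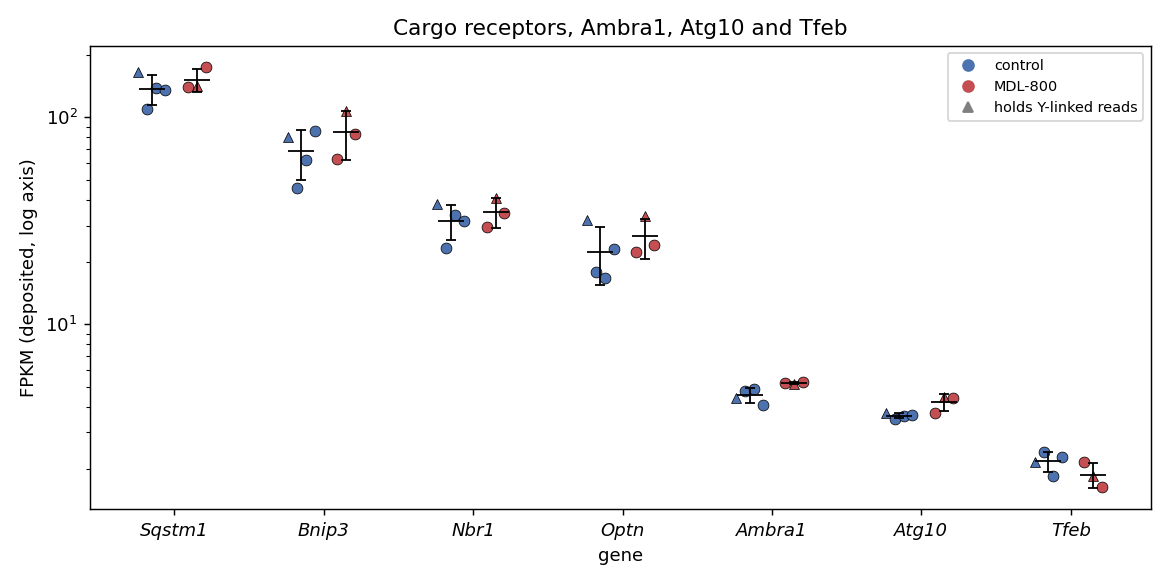
FPKM per library on a log axis for the 4 cargo receptor genes, Ambra1, Atg10 and Tfeb, with group means and SD as bars. Only Ambra1 and Atg10 have MDL-800 points that all lie above the control points on the deposited scale. The margins are small next to the range of Bnip3 or Optn.

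High and low libraries recurred across the subgroups. MDL-800 2 held the highest value for 15 of the 36 genes and control 1 for 10. Control 2 held the lowest value for 18 genes and control 4 for 11. Over all tested genes, MDL-800 2 and control 1 were highest for 23.1% and 19.0%, and control 2 and control 4 were lowest for 28.0% and 18.8%. The median deviation of the autophagy genes from their own means was 0.21 in MDL-800 2, 0.15 in control 1 and -0.22 in control 2, against 0.07, 0.04 and -0.10 for all tested genes. When summed reads replaced the deposited denominator, the median deviation was 0.07, 0.06 and -0.03 in these libraries, while control 4 was the lowest at -0.18 and MDL-800 3 the highest at 0.09. On that scale MDL-800 3 held the highest value for 10 genes, control 1 for 8 and MDL-800 2 for 6, and control 4 held the lowest value for 16 genes and control 2 for 8.

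**Figure D4:**
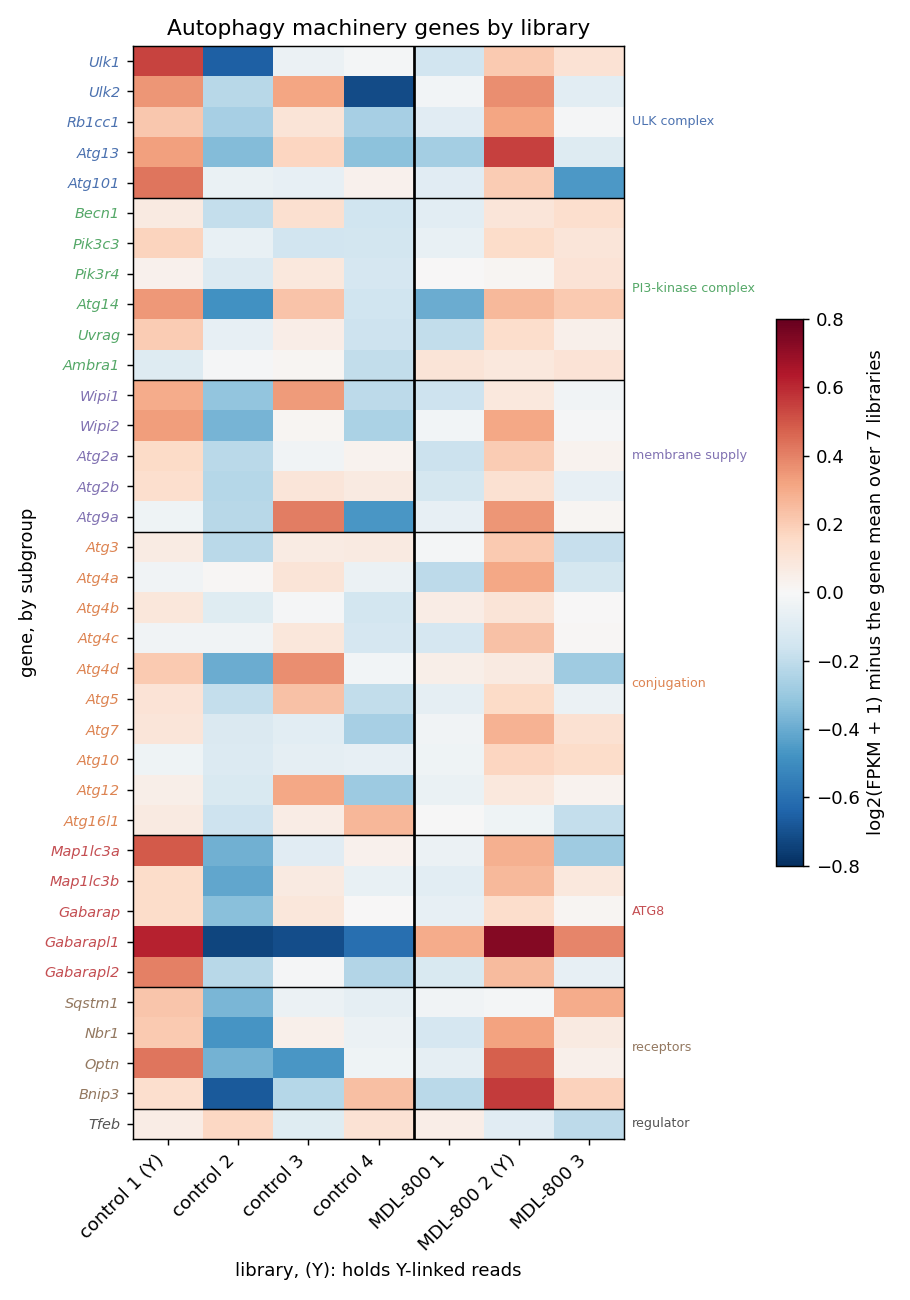
Deviation of log2(FPKM + 1) from the mean of each gene over the 7 libraries, with genes in rows by subgroup and libraries in columns. Control 1 and MDL-800 2 are mostly red and control 2 mostly blue, and Gabarapl1 is blue in controls 2 to 4 alone.

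Libraries with and without Y-linked reads were compared in a limma fit that kept treatment as a term. In that fit 276 of 11394 genes passed (2.42%), and 0 of the 36 autophagy genes did (lowest adjusted p = 0.0961, for Optn). At an unadjusted p under 0.05, 9 autophagy genes were higher and 0 lower, against 13.8% and 8.85% of all tested genes. They were Rb1cc1, Atg13 and Atg101 of the ULK complex, Wipi2, Atg7, the ATG8 genes Map1lc3a, Gabarapl1 and Gabarapl2, and Optn. Gabarapl1 differed by 0.87 (standard error 0.21, limma adjusted p = 0.0970), Optn by 0.61 (standard error 0.15) and Atg13 by 0.61 (standard error 0.17, adjusted p = 0.126). Without control 1 the Gabarapl1 difference was 0.39 (limma adjusted p = 0.691). Atg13 alone passed in 1 alternative, without control 3 (0.70, limma adjusted p = 0.0312).

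On the deposited scale, 34 of the 36 genes had a difference above 0 between libraries with and without Y-linked reads, the exceptions being Ambra1 and Tfeb, as did 6964 of the 11394 tested genes. Both libraries with Y-linked reads lay above the other 5 for 19 genes and below them for 0, where 20% and 12.8% of all tested genes did. The scaling moved this comparison: with summed reads as the denominator the median of all tested genes went from 0.08 to -0.07 and that of the autophagy genes from 0.23 to 0.07. Then 26 genes were above 0, as were 4415 of all tested genes, and 4 had an unadjusted p under 0.05 (Atg13, Map1lc3a, Gabarapl1 and Optn), against 5.97% of tested genes, and 0 were lower, against 11.6%. Both libraries lay above the rest for 8 genes on that scale, against 8.44% of tested genes, and below for 0, against 18.4%. Becn1, Pik3r4, Atg4b, Atg4c, Atg10, Atg12, Atg16l1 and Sqstm1 turned below 0.

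Another 71 genes that act in or on the pathway were listed, of which 66 were tested. None passed between MDL-800 and control (limma adjusted p of at least 0.950). Of the 66, 48 had a difference above 0 (median 0.10), against 54.2% of all tested genes (median 0.02). An unadjusted p under 0.05 was reached by 6, all higher in MDL-800, where 3.23% of all tested genes were. The list of receptors other than the 4 above had 14 of 15 tested genes above 0 (median 0.17), and that of further core factors had 6 of 12. Genes of autophagosome fusion had 10 of 14 above 0, and upstream regulators 18 of 25. No values with libraries dropped are given for these counts. MDL-800 libraries were all above the controls for 3 of the 66 (Ncoa4, Rab7 and Rragc), against 4.03% of tested genes. They were all below for 1, Tfe3, against 2.42%. These separations are on the deposited scale, and with summed reads as the denominator the groups overlapped for each of these genes. The fusion gene Rab7 was at 78.4 to 86.8 FPKM in control and at 90.0 to 91.7 FPKM in MDL-800 (0.13, standard error 0.11).

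Fnip2, a folliculin partner in nutrient sensing at the lysosome, was at 5.08, 3.37, 3.12 and 2.68 FPKM in control and at 4.32, 7.48 and 6.14 FPKM in MDL-800. Control 1 lay inside the MDL-800 range (0.61, standard error 0.22). Ncoa4, the receptor for ferritin, was at 8.77, 9.13, 9.15 and 8.58 FPKM in control and at 10.1, 11.1 and 10.9 FPKM in MDL-800. Its groups did not overlap on the deposited scale (0.24, standard error 0.09). Prkaa2, a catalytic subunit of the energy-sensing kinase AMPK, was at 5.66 ± 1.25 FPKM (SD, n = 4) in control and 7.83 ± 0.773 FPKM (SD, n = 3) in MDL-800 (0.42). The other genes of the 6 were Rragc, Tsc1 and Snap29, at 0.26, 0.43 and 0.29. The 3 genes with the smallest p in the lower direction were Tfe3, a relative of Tfeb, and the AMPK subunit genes Prkag1 and Prkaa1, at -0.25, -0.21 and -0.14. Tfe3 was at 4.88 FPKM in control 2 and at 2.65 to 2.97 FPKM in the other controls, and at 2.48 to 2.61 FPKM in MDL-800. Its groups did not overlap on the deposited scale, by a narrow margin, and it was at -0.10 without control 2. In the libraries without Y-linked reads, Fnip2, Ncoa4 and Prkaa2 differed by 0.61, 0.21 and 0.46, and Tfe3, Prkag1 and Prkaa1 by -0.31, -0.14 and -0.18. Prkaa1 was at 5.49 FPKM in control 3 and at -0.02 without it. Stbd1, a glycogen receptor for autophagy, passed between libraries with and without Y-linked reads (1.31, limma adjusted p = 0.0484), with 57.0 FPKM in control 1, 79.2 FPKM in MDL-800 2 and 15.1 to 38.7 FPKM in the other 5. That call ended when no filter was used, after median scaling, and without control 1, control 4 or any 1 of the MDL-800 libraries (adjusted p up to 0.494).

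Whole liver holds several cell types. Markers of Kupffer cells, the liver macrophages, summed to 258.0 FPKM in control 1 and 231.2 FPKM in MDL-800 2, and to 481.1 to 2230 FPKM in the other libraries. The highest of these was control 2, the library with the lowest values for 18 autophagy genes on the deposited scale and for 8 with summed reads. Of the 10 Kupffer markers, 9 were below 0 between libraries with and without Y-linked reads (median -1.80) and 9 between MDL-800 and control (median -0.41), and 0 passed in either fit. At an unadjusted p under 0.05, 8 of the 10 were lower in the libraries with Y-linked reads, against 8.85% of all tested genes, and 0 differed between MDL-800 and control. Of the 8 hepatocyte markers, 7 were above 0 between libraries with and without Y-linked reads (median 0.45), as were 6964 of 11394 tested genes. Between MDL-800 and control, 6 were below 0 (median -0.16), as were 5221 of the tested genes, and 0 passed in either fit. Neutrophil markers summed to 24.1 to 293.2 FPKM in control and 12.4 to 84.1 FPKM in MDL-800. Endothelial markers summed to 13.1 to 40.1 and 22.5 to 33.7 FPKM, stellate markers to 18.8 to 54.8 and 38.8 to 64.9 FPKM, lymphocyte markers to 14.6 to 69.4 and 7.08 to 49.8 FPKM, and bile duct markers to 24.2 to 54.8 and 28.8 to 90.8 FPKM. No marker was at 0 in all 7 libraries, and the part of these cells in the autophagy values was not tested.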

How the data were processed

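The authors deposited 1 table of FPKM per gene for the 7 libraries. The submitters' processing notes name build mm9, Cufflinks 2.2.1, TopHat2 2.0.14 and Bowtie2 2.1.0, without roles. Gene positions equal those of GENCODE M21 for 53756 of 54409 identifiers in both, so coordinates are GRCm38. Per the labels' protocols, cDNA came from a low-input SMARTer kit that does not mark strand.

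Multiplying deposited FPKM by gene length recovered reads (100% of nonzero values whole within 0.01). Their sum over the deposited denominator ran from 0.995 to 1.28. Intervals are 95% confidence intervals for the difference that limma fitted, based on the scatter among libraries.

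Values were tested as log2(FPKM + 1), unscaled, for the 11394 genes averaging 1 FPKM or more, with limma 3.58.1 in R 4.3.3 (trend, two-sided, Benjamini-Hochberg over all tested genes, threshold 0.05). Differences on this scale understate those of low genes. Libraries with over 1000 reads of Ddx3y, Kdm5d, Eif2s3y and Uty count as holding Y-linked reads. The procedure was tested on simulated data. Plots used matplotlib 3.10.9.

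The members and lists were chosen with earlier results of these data known. Named by rule were genes whose groups did not overlap, the ATG8 genes, receptors, Tfeb, the highest gene of each subgroup, and 3 further pathway genes in each direction with any that passed; Atg7, Atg13 and the other genes with values were added after their values were seen. Alternatives were a pseudocount of 0.1, no filter, median scaling, the replicate number as a block, a term for Y-linked reads, the 5 libraries without them, limma voom on recovered reads and leaving out each library. Summed reads as the denominator was added after seeing the data.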

Additional observations from a re-analysis of the deposited data

Results flagged for a closer look

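In a group of 4 libraries, a value whose gap to the nearest of the others takes more than 0.829 of the range was singled out. Chance gives about 1 in 20 groups, and 2 of the 36 autophagy genes met this in control, a share near that rate. Gabarapl1 was at 284.9 FPKM in control 1, far above the 111.3 to 121.8 FPKM of the other controls (gap 0.939 of the range). Control 1 is the control library with Y-linked reads. On the deposited scale, Atg3 was at 29.32 FPKM in control 2, below the 35.96 to 36.04 FPKM of the other controls (gap 0.988 of the range). With summed reads as the denominator, control 2 lay within the range of the other controls for Atg3. Control 2 held the lowest value of 18 autophagy genes on the deposited scale and of 8 genes when scaled by summed reads.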

How the results depend on the processing

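Across 15 alternatives, 19 autophagy genes kept the sign of their difference between MDL-800 and control and 17 did not. With 3 and 4 libraries and a median standard error of 0.16, small differences were not detectable. Genes passing numbered 0 over all genes, and 0 to 1 when single libraries were left out (1 without control 1 and 1 without MDL-800 1). Autophagy genes with an unadjusted p under 0.05 numbered 0, and 1 (Gabarapl1) with a pseudocount of 0.1, a term for Y-linked reads, the libraries with no Y-linked reads, limma voom or summed reads, and 0 to 1 when single libraries were left out. The Gabarapl1 difference ranged from 0.70 to 1.16 (limma adjusted p from 0.249 to 0.9999).

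Between libraries with and without Y-linked reads, 276 genes passed, 159 with no filter, and 38 (without control 1) to 409 (without control 3) when single libraries were left out; the counts were 82, 84 and 93 without MDL-800 1, 2 and 3. Passing autophagy genes numbered 0, and 0 to 1 with single libraries left out. Those with an unadjusted p under 0.05 numbered 9, 4 with limma voom, 4 with summed reads, and 2 (without control 1) to 14 (without control 3) with single libraries left out.

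Deviations of same-numbered libraries from their group means correlated at -0.587, -0.553 and 0.057 across genes. The highest correlation, 0.771, was between MDL-800 2 and control 1, the libraries with Y-linked reads. With so few libraries per group, these correlations cannot decide whether replicate numbers pair the libraries. Control 4 alone bore replicate number 4, so the replicate block fitted it exactly and gave the same differences as leaving it out. With the block, 192 genes had an unadjusted p under 0.05 in limma, against 553 in the main fit and 371 without control 4. In both settings Gabarapl1 differed by 0.75, and 22 autophagy genes were above 0. Both turned Ulk2 to -0.059, Atg14 to -0.0072, Atg5 to -0.039, Atg12 to -0.059 and Gabarapl2 to -0.036. In the libraries with no Y-linked reads, Atg13 was at -0.021, Atg3 at -0.074, Atg4c at -0.039 and Atg5 at -0.0096. A term for Y-linked reads gave Atg3 -0.010 and Gabarapl2 -0.0011, and median scaling gave Atg3 -0.011. With limma voom and with summed reads, Uvrag was at 0.024 and 0.017, Atg4a at 0.0088 and 0.0069, and Map1lc3a at 0.011 and 0.010. The cause of the sign changes outside the replicate block was not tested.

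Leaving out single libraries turned the sign of these genes, whose differences ranged for Ulk1 from -0.10 to 0.29, Ulk2 from -0.059 to 0.30, Atg13 from -0.15 to 0.26, Atg14 from -0.11 to 0.25, Uvrag from -0.084 to 0.083 and Wipi1 from -0.18 to 0.040. They ranged for Atg2a from -0.055 to 0.13, Atg2b from -0.13 to 0.011, Atg3 from -0.097 to 0.10, Atg4a from -0.18 to 0.074, Atg4c from -0.038 to 0.15 and Atg4d from -0.24 to 0.020. For Atg5 the range was -0.049 to 0.10, for Atg12 -0.059 to 0.14, for Map1lc3a -0.18 to 0.13, for Gabarap -0.053 to 0.11 and for Gabarapl2 -0.078 to 0.18.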
